A study of Homo sapiens with 26 samples.

Results

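Haemoglobin chains are encoded by globin genes that lie in 2 clusters and are used in turn during development. In the alpha cluster HBZ encodes the embryonic zeta chain, HBA2 and HBA1 encode the alpha chain used in the fetus and the adult, and HBQ1 encodes theta globin, for which no place in haemoglobin is established. In the beta cluster HBE1 encodes the embryonic epsilon chain, HBG2 and HBG1 the fetal gamma chains, HBD the minor adult delta chain and HBB the major adult beta chain. A working haemoglobin pairs chains of the alpha cluster with chains of the beta cluster. K562, a line from a chronic myeloid leukaemia, is known for an embryonic and fetal globin programme. HEK293T and HEK293FT are kidney-derived lines that are not erythroid.

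The 9 globin genes were taken by symbol, and each had 1 row among the 19478 coding sequences in all 4 deposited count tables. Ribosome footprints, the mRNA fragments that ribosomes shield from RNase I, were counted per coding sequence in 26 libraries: 16 of K562, 8 of HEK293T and 2 of HEK293FT. All cells were unmodified as far as the labels say, and all lysates contained cycloheximide, which arrests elongating ribosomes. The series compared ways of removing rRNA from such libraries.

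The HEK293T table held 2 libraries each of undepleted, Ribo-Zero Gold, RiboCop and NEBNext footprints, labelled 15 to 35 nt. In the K562 kit table, labelled 20 to 34 nt, FastSelect, riboPools, riboPools eluted cold and undepleted footprints had 2 libraries apiece, and 4 single Ribo-Zero Plus libraries had neither addition, oligos, formaldehyde, or both. The K562 size-selection table paired undepleted with NEBNext footprints, 1 library of each at 20 to 34 nt and 1 of each at 20 to 60 nt. Both undepleted libraries there are called so by their titles, while another of their labels names NEBNext. The HEK293FT table held 1 undepleted library and 1 depleted with custom oligos, labelled 15 to 35 nt. Library totals ran from 46858 to 5795774 counts. The kit table without Ribo-Zero Plus was the deepest (1031889 to 5795774), and the 3 Ribo-Zero Plus libraries with an addition held 116742 to 184722. Levels are in CPM, the count scaled to the library total, and comparisons between genes use CPM per kb of coding sequence. The floor was set at 3 counts, which in single libraries lay between 0.518 and 64.0 CPM. Fold changes are given as bounds against the floor only where a line had no count of the gene. Where both lines had any count, the ratio of their pooled CPM is given. Such a ratio is uncertain where it rests on 3 counts or fewer. The labels do not say that replicates came from separate cultures, so the p-values measure only the spread between these libraries.

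The alpha cluster is on chromosome 16 of GRCh38, plus strand, with HBZ at chr16:152687-154503, HBA2 at chr16:172876-173710, HBA1 at chr16:176680-177522 and HBQ1 at chr16:180453-181181. The beta cluster is on chromosome 11, minus strand, with HBG2 at chr11:5253190-5254811, HBG1 at chr11:5248079-5249859, HBD at chr11:5232838-5234648 and HBB at chr11:5225464-5227071. The HBE1 transcript used here, with 5 exons of which 3 are coding, runs over chr11:5268345-5505604. Each member has 3 coding exons, with 429 nt of coding sequence in the alpha cluster and 444 nt in the beta cluster. GC content was 64.8% to 68.1% in the alpha cluster and 52.9% to 56.1% in the beta cluster.

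Some of these sequences are too alike for a footprint to tell them apart, and the stretches below show how far that goes. The beta-cluster lines take in the only positions where HBG2 and HBG1 differ, T227C and G410C (the HBG2 base, the coding position counted from 1 at the A of the start codon, then the HBG1 base). Capitals mark bases that differ from HBG1 at the same coding position. The first 4 lines cover coding positions 205 to 249, at chr11:5249434-5249478 for HBG1, chr11:5254358-5254402 for HBG2, chr11:5269520-5269564 for HBE1 and chr11:5234057-5234101 for HBD.
HBG1: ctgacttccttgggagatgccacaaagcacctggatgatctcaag
HBG2: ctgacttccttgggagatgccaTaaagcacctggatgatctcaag
HBE1: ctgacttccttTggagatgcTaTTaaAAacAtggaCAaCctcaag
HBD: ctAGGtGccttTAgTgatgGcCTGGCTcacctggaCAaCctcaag
HBG1, positions 388 to 432: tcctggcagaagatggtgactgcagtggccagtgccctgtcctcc
HBG2, positions 388 to 432: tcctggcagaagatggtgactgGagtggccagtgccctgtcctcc

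The second stretch lies at chr11:5248371-5248415 in HBG1 and chr11:5253289-5253333 in HBG2, and every stretch shown is within 1 coding exon. In the alpha cluster HBA1 and HBA2 have the same coding sequence from end to end. The lines below cover coding positions 381 to 425, at chr16:177363-177407 for HBA1, chr16:173552-173596 for HBA2, chr16:154352-154396 for HBZ and chr16:181060-181104 for HBQ1, with capitals where the base differs from HBA1.
HBA1: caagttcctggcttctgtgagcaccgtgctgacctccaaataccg
HBA2: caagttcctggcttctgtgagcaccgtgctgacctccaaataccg
HBZ: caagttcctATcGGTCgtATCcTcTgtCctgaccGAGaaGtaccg
HBQ1: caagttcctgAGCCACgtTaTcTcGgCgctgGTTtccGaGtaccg

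In windows of 28 nt, a usual footprint length, all 402 windows of HBA1 also occur in HBA2. HBG2 and HBG1 share 361 of 417 windows (86.6%), and HBD and HBB share 98 of 417 (23.5%). HBE1 shares 23 windows (5.52%) with each gamma gene. HBQ1 shares none of its 402 windows with another annotated coding sequence. Of the 402 HBZ windows, 352 also occur in its copy HBZP1 and 178 in transcripts of HBM. Transcripts of another annotated gene, AC104389.5, hold 389 of the 417 windows of each gamma gene. Splits between HBA1 and HBA2 and between HBG1 and HBG2 are therefore uncertain, and the sum of each pair is given for the main results. The row named HBG2 carries transcript ENST00000380259.6. In the annotation used here that transcript, at version 7, belongs to a read-through gene that also holds HBE1 and gamma sequence, so the coding sequence counted as HBG2 is not settled, and the HBG2 sequence shown is from ENST00000336906.5. Of the 417 HBE1 windows, 366 also occur in that read-through gene, as do 211 of HBG2 and of HBG1. How footprints of HBE1 were shared with the row named HBG2 is therefore not known, which bears on the epsilon share and on each ratio of HBE1 to the gamma genes.

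**Figure D1:**
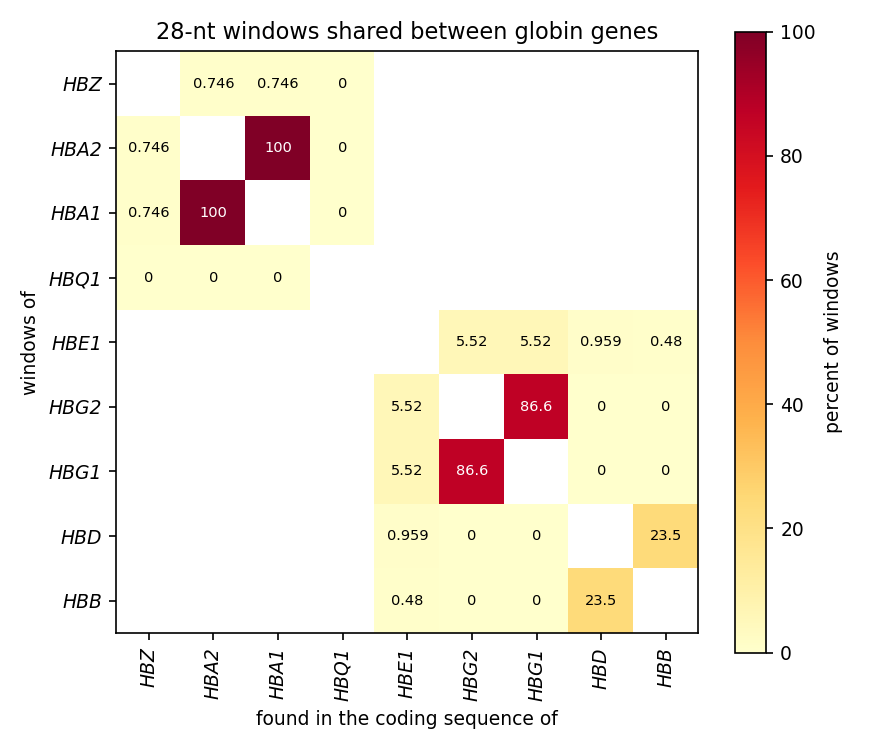
Share of the 28-nt windows of each globin coding sequence (rows) found unchanged in another of the same cluster (columns), in percent; blank squares were not compared. HBA1 and HBA2 share 100%, HBG2 and HBG1 86.6%, and HBD and HBB 23.5%.

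The gamma genes led the globin footprints of K562. In the undepleted kit libraries HBG2 stood at 4145 and 3923 CPM and HBG1 at 3947 and 3848 CPM, ranking 10 and 12 among all coding sequences by pooled count. Their sum was 8093 and 7771 CPM. HBE1 followed at 2014 and 1947 CPM (rank 51). The 9 genes together took 13168 ± 275 CPM (SD, n = 2), which is 1.32% of all counts. Over the 8 kit libraries without Ribo-Zero Plus the sum ran from 1.30% to 1.36%.

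Within the alpha cluster HBA1 stood at 1206 and 1174 CPM, HBA2 at 1178 and 1198 CPM and HBZ at 815 and 828 CPM in these libraries. HBA1 and HBA2 summed to 2383 and 2371 CPM. HBA1 and HBA2 ranked 105 and 106 and HBZ 194. These 3 genes and the 3 leading beta-cluster genes held nearly all globin counts.

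The adult chains and theta were rare. HBD had 30 and 35 counts (26.4 and 33.9 CPM), HBQ1 28 and 13 counts (24.7 and 12.6 CPM) and HBB 7 and 10 counts (6.16 and 9.69 CPM). Their ranks were 4968, 6278 and 8214 of 19478, with 12097 coding sequences holding any count. The minor adult gene HBD stood above the major adult gene HBB in both libraries.

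Per kb, over the 8 kit libraries without Ribo-Zero Plus, the order of levels was HBG2 (median 9336 CPM per kb), HBG1 (8906), HBE1 (4414), HBA1 (2737), HBA2 (2708), HBZ (1886), HBD (58.5), HBQ1 (44.8) and HBB (22.6). The ranges of HBG2 and HBG1 overlapped, as did those of HBA1 and HBA2, of HBD and HBQ1, and of HBQ1 and HBB. Within a library HBD was above HBQ1, and HBQ1 above HBB, in 8 of 8. The gap between HBZ and HBD was 31.5-fold by the ratio of their means. HBG1 and HBE1 did not overlap, with HBG1 2.04-fold higher.

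**Figure D2:**
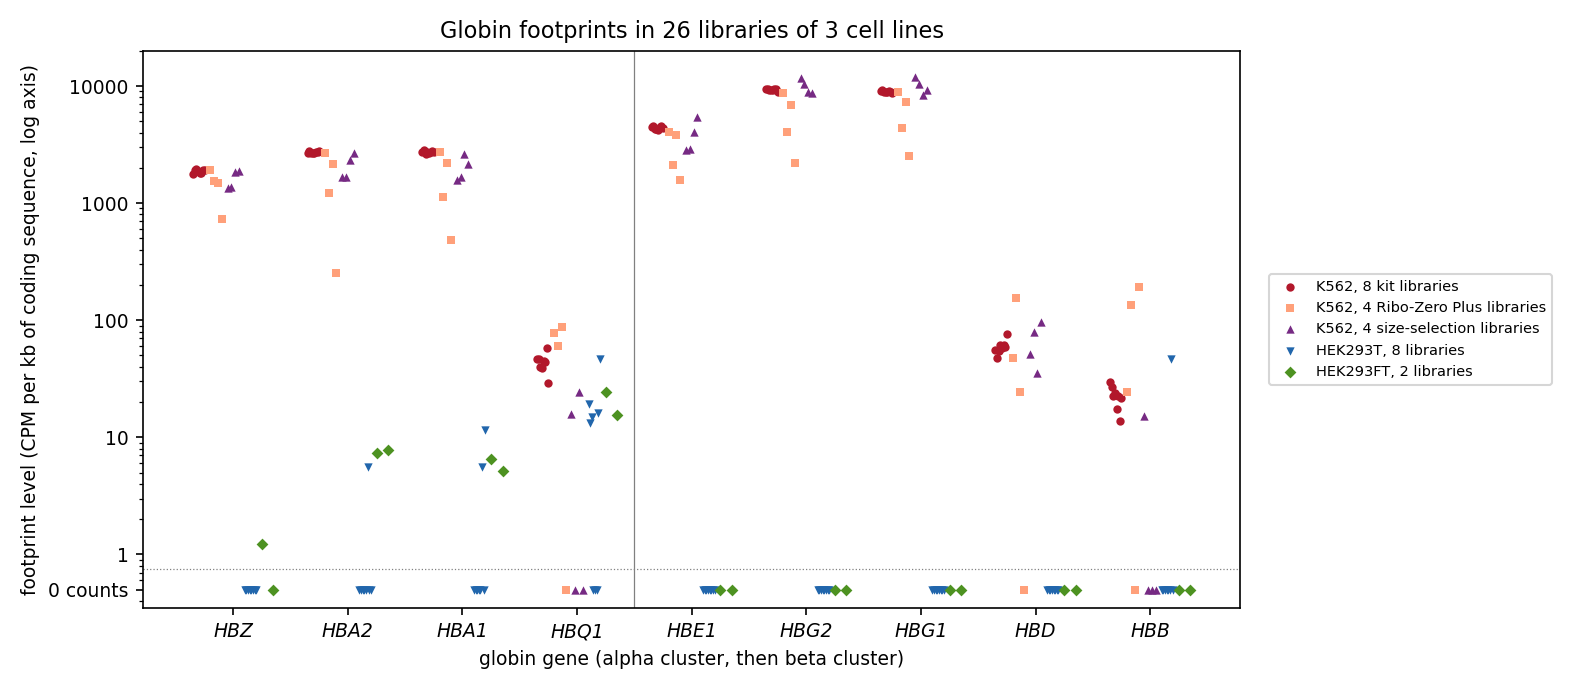
Level of each globin gene in CPM per kb of coding sequence on a log axis; each point is 1 library, colours and shapes mark the cell line and table, and libraries with 0 counts are drawn on the line labelled so. In K562 the gamma genes, HBE1, HBA1, HBA2 and HBZ stand far above HBD, HBQ1 and HBB, and in the HEK lines HBQ1 is the member most often counted.

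Gamma chains made up 79.7% ± 0.1 (SD, n = 2) of the beta-cluster counts in the undepleted kit libraries. Epsilon accounted for 19.9% in both. Delta and beta together held 0.321% (exact 95% interval 0.226 to 0.443) and 0.447% (0.326 to 0.597). Embryonic HBZ took 25.3% (23.9 to 26.7) and 25.8% (24.3 to 27.3) of the alpha-cluster counts. Alpha-cluster counts were 0.318 and 0.329 of the beta-cluster counts. If each pair of near-identical rows had counted the same footprints in both, these values would differ: with their rows averaged instead of summed, gamma was 66.3%, HBZ 40.5% and the cluster ratio 0.339. The HBA1 and HBA2 rows, of identical coding sequence, had unequal counts in both libraries (1369 and 1337, then 1211 and 1236). Those 2 rows thus did not count every footprint in both.

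The split between near-identical genes was close to even. HBA1 held 50.2% of the summed HBA counts over the 16 K562 libraries, and the exact 95% interval of a library included 50% in 15 of 16. The exception was Ribo-Zero Plus with oligos and formaldehyde, with 34 HBA1 and 18 HBA2 counts. The squared HBA1 to HBA2 difference over their sum averaged 0.835 per library, where an independent even split gives 1 on average and counting each footprint in both rows gives 0. HBG2 held 50.7% of gamma counts, the same quantity averaged 3.90, and the interval included 50% in 10 of 16 libraries. In the other 6, all kit libraries, HBG2 was above HBG1, at 50.7% to 51.3% of gamma counts. Intervals cover counting error only, since PCR copies of 1 footprint are not independent.

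Between K562 and HEK293T, 7 of the 8 globins tested were higher in K562, where 18.5% of all tested genes were higher and 35.4% changed either way. In the undepleted HEK293T libraries every globin but HBQ1 had 0 counts in 120019 and 153462. Against the floor of 3 counts over both libraries (11.0 CPM), K562 was at least 368-fold higher for HBG2, 356-fold for HBG1, 181-fold for HBE1, 108-fold for HBA2, 109-fold for HBA1, 74.8-fold for HBZ and 2.73-fold for HBD. The edgeR quasi-likelihood adjusted p was 2.28e-97 for HBZ and 0.000313 for HBD. HBB, with 17 counts in K562 and 0 in HEK293T, was below the count filter and was not tested, and its K562 level lay under that floor.

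HBQ1 was the exception. It had 1 and 0 counts in undepleted HEK293T, and the ratio of K562 to HEK293T was 5.17 with an exact counting interval of 0.878 to 209. Its log2 fold change was 2.56 ± 1.12 (SE; edgeR adjusted p 0.061). With all libraries of both lines, the log2 fold change was 1.98 and the call was made (edgeR adjusted p 0.000906). That fit had no term for kit, fragment size or addition, so libraries of unlike treatment counted as replicates of a line. It also called more genes over all than the main fit, as the closing section gives. Its counts over the 8 HEK293T libraries were 0 in 3, 1 or 2 in 4 and 4 in 1, or 5.47 CPM pooled (2.62 to 10.1).

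Over all 8 HEK293T libraries, HBZ, HBE1, HBG2, HBG1 and HBD had 0 counts of 1827473, which allows up to 1.64 CPM. HBA1 had 2 counts and HBA2 had 1. All 6 HBB counts came from the second RiboCop library (20.7 CPM, 7.58 to 45.0), and the other 7 libraries had none. That value was above HBB in both undepleted K562 kit libraries.

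Against HEK293FT, 8 of 8 tested globins were higher in K562, where 26% of all tested genes were higher and 52.1% changed. HEK293FT had 1 undepleted library, which the fit took to vary like the other groups. Its counts were 6 for HBQ1, 3 for HBA2, 2 for HBA1 and 0 for the rest. Against 3 counts (3.33 CPM) K562 was at least 1213-fold higher for HBG2, 1171-fold for HBG1, 595-fold for HBE1 and 246-fold for HBZ, and HBD was called as well (edgeR adjusted p 4.91e-10). The ratio was 356 (122 to 1730) for HBA2 and 536 (148 to 4429) for HBA1. HBQ1 was 2.84-fold higher (1.20 to 8.19; edgeR adjusted p 0.0166), and its call was not made by DESeq2 (adjusted p 0.261).

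The deeper HEK293FT library, depleted with custom oligos, had 60 HBQ1, 18 HBA2, 16 HBA1 and 3 HBZ counts in 5747772. No footprint of HBE1, HBG2, HBG1, HBD or HBB was counted in it, where the floor of 3 counts is 0.522 CPM. Its levels of HBA2 (3.13 CPM) and HBA1 (2.78 CPM) were close to those of the undepleted library (3.33 and 2.22 CPM). HBQ1 stood at 10.4 CPM there and 6.66 CPM in the undepleted one. Pooled over libraries, HBQ1 in K562 (8 kit libraries) was 1.90 times (1.46 to 2.49) its HEK293FT level. In the HEK lines HBQ1 was thus the globin with the most counts, and in K562 it was among the 3 with the fewest. Each table held 1 line, so a difference between lines cannot be told apart from one between experiments, and the labelled fragment sizes differed too.

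Most marker genes that could be tested matched the cell line labels. Of 8 erythroid and K562 markers 7 rose in K562 over HEK293T, beside 18.5% of all tested genes. Among them were GATA1 (409 ± 0.2 CPM, SD, n = 2), a zinc-finger factor of red cell genes, and KLF1 (85.2 ± 5.3 CPM), an activator of adult beta globin. Both had 0 counts in undepleted HEK293T. The log2 fold change of EPOR, the erythropoietin receptor, was 2.20 ± 1.23 (edgeR adjusted p 0.157). Of 5 HEK293 markers 3 were tested and fell in K562, where 35.4% of all tested genes changed either way. NEFM, a neurofilament chain, was at 0 counts in all 16 K562 libraries and at 203.9 to 404.0 CPM in HEK293T. PAX2 and LHX1 were too low to test, with 1 and 7 counts over the 8 HEK293T libraries.

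Transcription factors and cofactors that act at the globin loci were mostly higher in K562. GATA1, KLF1 and TAL1 are on this list and on that of the markers. Of 16 tested, 10 rose and 0 fell against HEK293T, so that 62.5% were called higher beside 18.5% of all tested genes, with a list median log2 fold change of 1.96 beside 0.02 for all genes. GATA1 was at least 37.3-fold higher, GFI1B, a repressor of blood cell genes, at least 12.3-fold, and NFE2, which binds the beta-globin locus control region, at least 11.1-fold. Against HEK293FT 10 rose and 2 fell, or 75% called beside 52.1% of all tested genes.

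Of 18 repressors of fetal globin and stage regulators, 17 were tested, and 6 rose and 2 fell against HEK293T (list median log2 fold change 0.55). That is 47.1% called, beside 35.4% of all tested genes. BCL11A, a repressor of the gamma genes, had 0 counts in both undepleted K562 kit libraries and 1 count over all 16 K562 libraries, against 9 counts in undepleted HEK293T. It was at least 23.8-fold higher in HEK293T (edgeR adjusted p 1.07e-06). HDAC2, a histone deacetylase, was at 288 ± 14 CPM in K562 and 582 ± 80 CPM in HEK293T (n = 2 each), a log2 fold change of -0.78 ± 0.14. MYB, a factor of immature blood cells, was at least 13.1-fold higher in K562, and HIC2, a repressor of BCL11A, was 4.76-fold higher, with a lower exact 95% bound of 2.28. ZBTB7A, a second repressor of the gamma genes, had 67 counts in K562 and 3 in HEK293T, a ratio of 2.82 with an interval that included 1 (0.924 to 14.0; edgeR adjusted p 0.0451), and against HEK293FT its log2 fold change was 0.32 ± 0.35 (edgeR adjusted p 0.46). SOX6 had too few counts to test. Against HEK293FT 7 rose and 3 fell, a called share of 58.8%, near the 52.1% of all tested genes.

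Of 13 genes of haem synthesis and the alpha-globin chaperone, 11 were tested, and 4 rose and 2 fell against HEK293T (list median log2 fold change 0.57), or 54.5% called beside 35.4% of all tested genes. PPOX, an enzyme late in the pathway, and SLC25A37, a mitochondrial iron carrier, rose, each against 1 HEK293T count, with ratios of 8.08 (1.40 to 324) and 5.93 (1.01 to 239). ALAS1, the housekeeping form of the first enzyme, and ALAD, the second enzyme, fell, with log2 fold changes of -1.05 ± 0.39 and -1.65 ± 0.65. The erythroid form ALAS2 and the chaperone AHSP were too low to test, at 10.1 ± 0.6 and 7.44 ± 1.81 CPM in K562 and 0 counts in all HEK libraries. Against HEK293FT 4 rose and 1 fell, a called share of 45.5%, below the 52.1% of all tested genes. HBM, MB, CYGB and NGB, the other globins, had 0 counts in all 26 libraries. HBM transcripts share 178 windows of 28 nt with HBZ, and how such footprints were assigned is not known.

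No globin passed the test with FastSelect or riboPools in K562. With edgeR 0 of 9 globins were called for FastSelect, where 0.0205% of all tested genes were called, 0 of 9 for riboPools (0.082%), 0 of 9 for riboPools with cold elution (0.225%) and 0 of 9 for cold against standard elution (0.0307%). DESeq2 called 0 of 9 in each as well. At an unadjusted p under 0.05 there were 2 globins for FastSelect (the near-identical HBG1 and HBG2) and 0 for riboPools. There were 0 for cold elution and 1 for cold against standard elution (HBZ). Over all 9761 genes tested, 552, 572, 624 and 609 had such a p, in the same order. Since the 3 comparisons with undepleted share those 2 libraries, they are not independent.

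The 6 abundant globins varied little across these kits. HBG1 stood at 3947 and 3848 CPM undepleted, and its FastSelect log2 fold change was 0.06 ± 0.02 (SE; edgeR adjusted p 0.856). Over the 8 libraries its lowest, median and highest levels were 3848, 3954 and 4133 CPM. HBE1 spanned 1873, 1960 and 2014 CPM, and HBA1 1119, 1174 and 1216 CPM. Summed, HBG1 and HBG2 spanned 7771, 8089 and 8316 CPM, and HBA1 and HBA2 2272, 2337 and 2402 CPM. The highest library exceeded the lowest by 1.09-fold at most for any of these 6 genes, and their coefficients of variation ran from 1.70% (HBA2) to 3.03% (HBZ).

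The rare members varied more. HBD spanned 21.3 to 33.9 CPM (1.59-fold), HBQ1 12.6 to 24.7 CPM (1.96-fold) and HBB 6.16 to 13.2 CPM (2.14-fold). The largest log2 fold change of any member was 0.67 ± 0.38 for HBB with FastSelect (edgeR adjusted p 0.908), from 7 and 10 undepleted counts and 33 and 35 FastSelect counts. At these counts smaller differences were not detectable. The composition varied little: gamma made up 79.6% to 80.9% of beta-cluster counts, HBZ 24.8% to 26.6% of alpha-cluster counts, and the cluster ratio ran from 0.303 to 0.329. Within those ranges the undepleted libraries had the lowest gamma shares and the highest cluster ratios, by small margins. Gamma was 79.8% (exact interval 79.1 to 80.5) and 79.6% (78.8 to 80.4) in them. It was 80.3% to 80.9% in the FastSelect and riboPools libraries. Both undepleted intervals included the lowest of those values but not the highest. The cluster ratio was 0.318 and 0.329 undepleted (SD 0.0079) and at most 0.316 in the others. HBZ shares overlapped, and these differences were not tested.

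**Figure D3:**
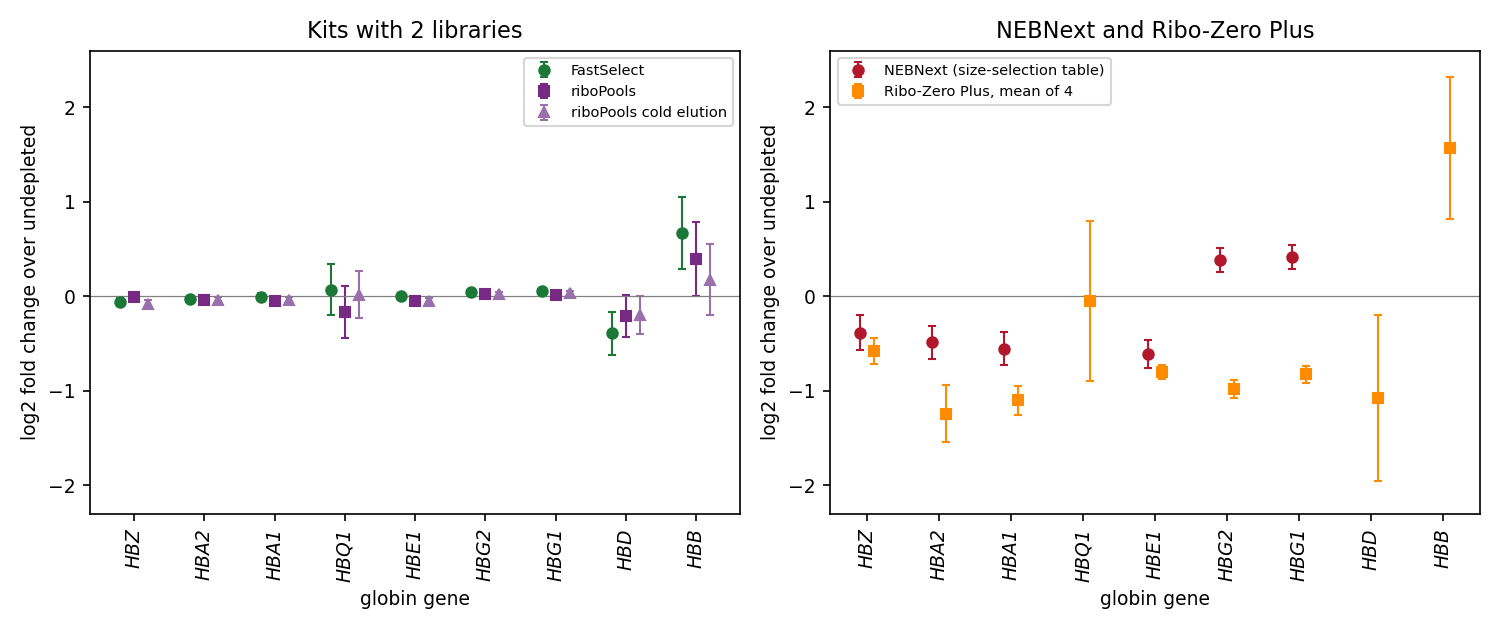
Log2 fold change over undepleted in K562 (y axis) for each globin gene (x axis), with bars of 1 SE. FastSelect and riboPools (left) lie within about 0.1 of 0 for the 6 abundant genes; with NEBNext (right) HBG2 and HBG1 lie above 0 and HBE1, HBA1, HBA2 and HBZ below, and the mean of the 4 Ribo-Zero Plus libraries is below 0 for all 6.

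With NEBNext, gamma genes were higher and the other abundant globins lower than undepleted. Of the 6 globins tested in the K562 size-selection libraries 3 were called, 1 higher and 2 lower, where 2.72% of all tested genes were called, 1.75% higher and 0.969% lower. HBG1 was at 5258 and 4662 CPM with NEBNext (20 to 34 and 20 to 60 nt) and at 3743 and 4076 CPM undepleted. Both NEBNext libraries were above both undepleted ones, and the log2 fold change was 0.42 ± 0.13 (edgeR adjusted p 0.0497). HBG2 was at 5178 and 4587 CPM against 3958 and 3841 CPM, with 0.38 ± 0.13 (adjusted p 0.0789).

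HBE1 differed in the opposite direction, with 1260 and 1277 CPM under NEBNext and 1782 and 2412 CPM undepleted. Its groups did not overlap either, and it fell by 0.61 ± 0.15 on the log2 scale (edgeR adjusted p 0.00292). HBA1 was at 682 and 711 CPM against 1125 and 918 CPM, and fell by 0.55 ± 0.17 (adjusted p 0.0497). HBA2 was at 723 and 711 CPM against 993 and 1152 CPM, with a log2 fold change of -0.49 ± 0.17 (adjusted p 0.0961). HBZ was at 582 and 591 CPM against 783 and 811 CPM, with -0.38 ± 0.18 (adjusted p 0.304). HBQ1, HBD and HBB, with at most 10 counts in a library, were not tested.

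With each near-identical pair summed, the alpha genes were called lower (-0.52, edgeR adjusted p 0.0208) and the gamma genes higher (0.39, adjusted p 0.0478). The ratio of HBA to HBG counts was 0.135 and 0.154 with NEBNext and 0.275 and 0.261 undepleted, and in the 8 kit libraries without Ribo-Zero Plus it was 0.281 to 0.305. The ratio of HBE1 to HBG was 0.121 and 0.138 with NEBNext and 0.231 and 0.305 undepleted. Gamma made up 89.0% and 87.6% of beta-cluster counts with NEBNext and 81.1% and 76.3% undepleted, shares for which no test was run. The sum of the 9 genes was 1.37% and 1.26% of counts with NEBNext and 1.24% and 1.33% undepleted.

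These calls rest on 1 library per cell of the design and 1 residual degree of freedom. DESeq2 called none of the 6 (HBE1 adjusted p 0.173, HBG1 0.299), though its directions were the same. The calls for HBG1, HBE1 and HBA1 were lost without the NEBNext 20 to 34 nt library (adjusted p 0.711 for each), without either undepleted library (0.0857 to 0.849), and kept without the NEBNext 20 to 60 nt one. Between 20 to 60 and 20 to 34 nt fragments 0 of 6 globins were called by edgeR, where 0.162% of tested genes were. None of the 6 had an unadjusted p under 0.05, beside 227 of all 3715 genes tested, and DESeq2 called 0 as well. Their log2 fold changes lay between -0.13 (HBG2) and 0.18 (HBE1).

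The 4 Ribo-Zero Plus libraries differed in globin level. With neither addition, HBG1 stood at 3922 CPM, 1.01 times the undepleted mean, HBA1 at 1177 CPM (0.989 times) and HBZ at 818 CPM (0.997 times). With oligos HBG1 was at 3259 CPM, with formaldehyde at 1944 CPM and with both at 1120 CPM. The 3 libraries with an addition were below both undepleted ones for all 6 abundant globins. The 9 genes together made up 1.28% of counts with neither addition, 1.06% with oligos, 0.650% with formaldehyde and 0.351% with both.

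The members' levels differed from each other in these libraries. With both additions HBA2 was at 0.0918 times the undepleted mean (18 counts), HBA1 at 0.173 times, HBG2 at 0.240 times, HBG1 at 0.287 times, HBE1 at 0.355 times and HBZ at 0.383 times. The summed alpha genes were at 0.132 times and the summed gamma genes at 0.263 times. HBZ took 39.2% (32.4 to 46.3) of alpha-cluster counts with formaldehyde and 50% (40.0 to 60.0) with both, against 25.2% (21.3 to 29.4) with oligos and 25.8% with neither. HBB had 7 counts with formaldehyde (60.0 CPM, 24.1 to 124) and 14 with both (84.8 CPM, 46.3 to 142), against 10.9 CPM with neither addition and 0 counts with oligos. HBD had 8 counts with formaldehyde and 0 with both. Delta and beta together thus held 2.68% (1.51 to 4.38) and 2.95% (1.62 to 4.90) of beta-cluster counts in the formaldehyde libraries, and 0.135% and 0.332% in the other 2. These are single libraries, and the intervals cover counting error only.

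The mean of the 4 Ribo-Zero Plus libraries, with the additions as terms of the fit, had log2 fold changes of -0.83 ± 0.09 for HBG1, -0.98 ± 0.09 for HBG2, -0.80 ± 0.08 for HBE1, -1.24 ± 0.30 for HBA2, -1.10 ± 0.15 for HBA1 and -0.58 ± 0.14 for HBZ. With each pair summed, they were -0.90 ± 0.09 for the gamma and -1.17 ± 0.22 for the alpha genes. The median of all genes was -0.25. None of the 9 was called by edgeR (adjusted p 0.335 for each of these 6), where 0% of 7322 genes were called and 1000 had an unadjusted p under 0.05. The 6 globins just named were among those 1000, and DESeq2 called 5 of the 9, all but HBZ among these 6. Over all genes DESeq2 called 129, under the same count filter that kept 7322. When any 1 of the 4 Ribo-Zero Plus libraries was left out, the log2 fold changes of these 6 stayed below 0, between -0.75 and -0.96 for HBG1. Such a fit matches the remaining Ribo-Zero Plus libraries exactly. Its spread comes from the 2 undepleted libraries alone, so no call is read from it. HBB turned from 1.57 ± 0.75 (edgeR adjusted p 0.481) to -1.54 without the library with both additions and -1.18 without the one with neither, uncalled each time. Depth moved with the additions, and its part in the result was not tested.

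**Figure D4:**
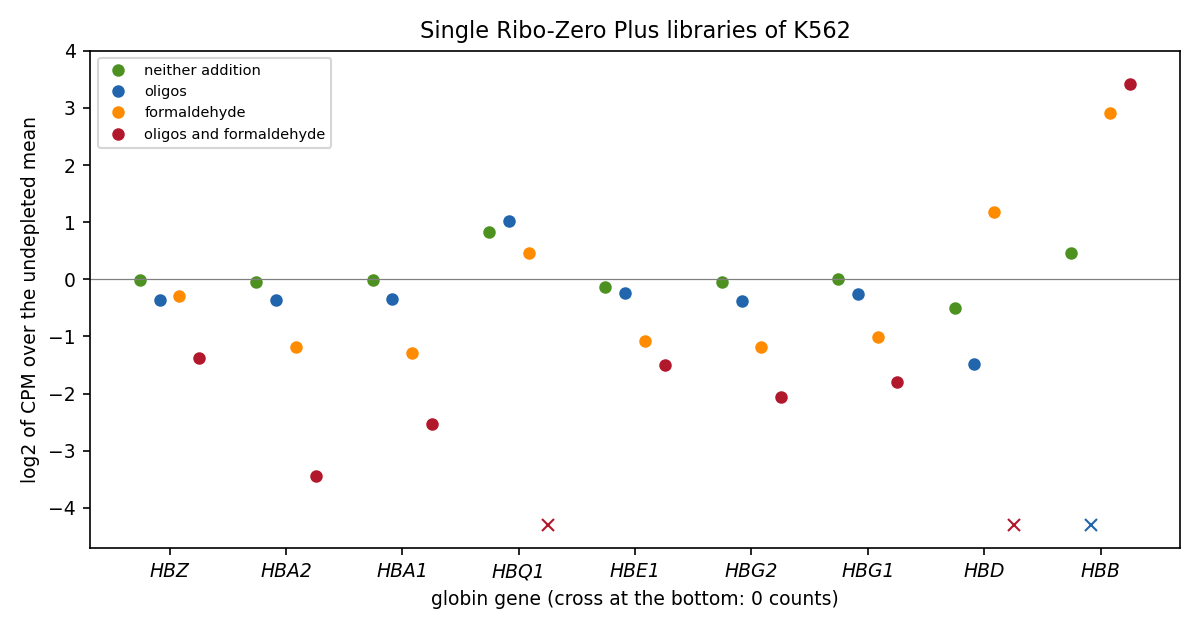
Log2 of the CPM of each globin gene over the mean of the 2 undepleted kit libraries (y axis) in the 4 single Ribo-Zero Plus libraries of K562; a cross at the bottom marks 0 counts. With neither addition the 6 abundant genes lie near 0, with both additions they lie between -1.38 and -3.45, and HBB lies above 0 in the formaldehyde libraries.

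**Figure D5:**
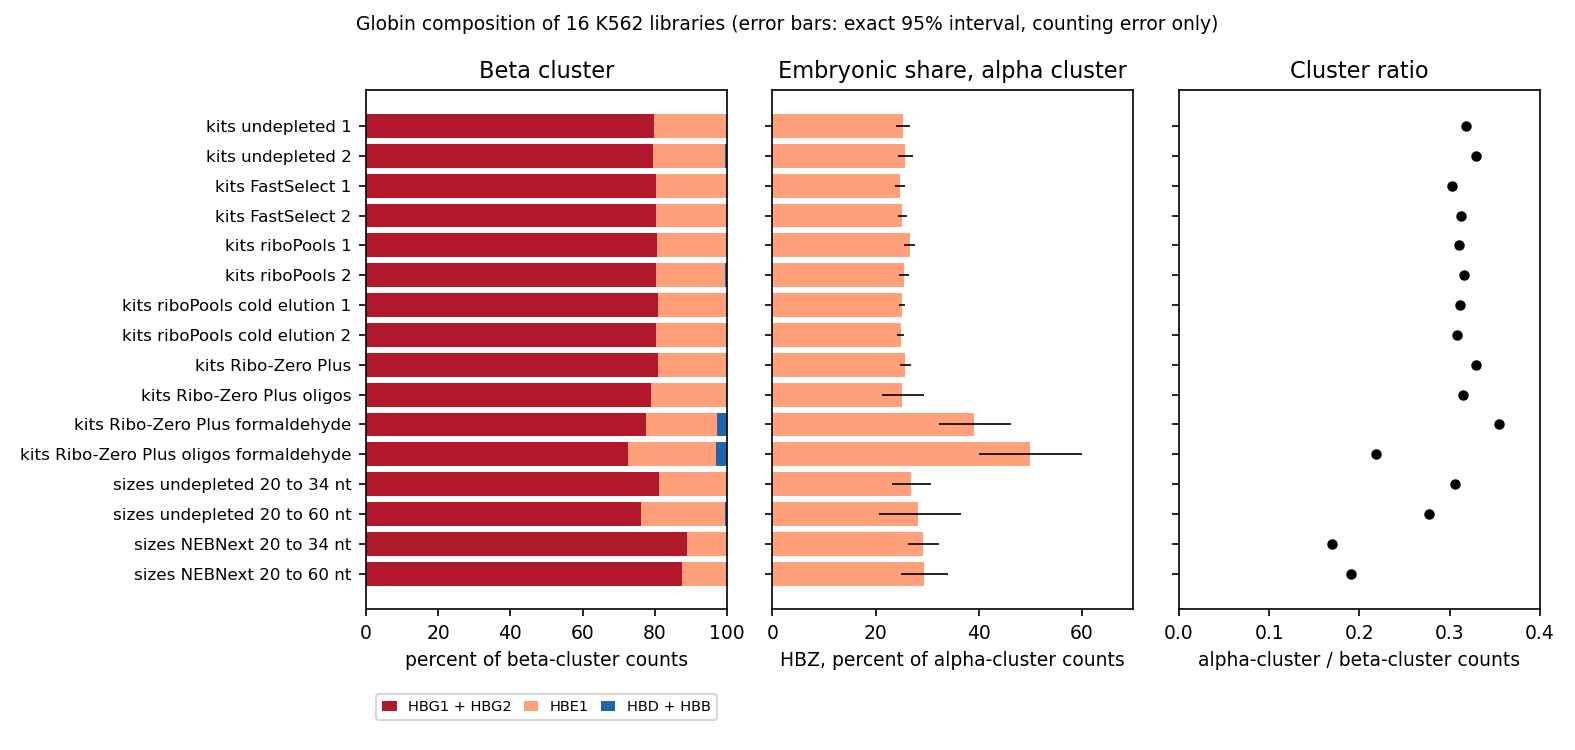
Make-up of globin counts in 16 K562 libraries: percent of beta-cluster counts per chain type (left), HBZ as percent of alpha-cluster counts with exact 95% intervals (middle), and the ratio of alpha-cluster to beta-cluster counts (right). The 2 NEBNext libraries show the highest gamma shares and the lowest cluster ratios, and the 2 formaldehyde libraries the highest HBZ shares.

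Among 2144 other genes averaging 100 counts or more in the undepleted K562 kit libraries, those whose log2(CPM + 1) was most like that of the summed globins over the 26 libraries were SCG3 (Pearson r 0.984), PRAME (0.982), MYL12A (0.982), HIST1H2BG (0.981) and CTCFL (0.981). These points share cell line, table and depth, and the likeness largely restates the contrast of K562 with the HEK lines: SCG3 averaged 313 CPM in undepleted K562 and reached at most 6.88 CPM in HEK293T. Over the 12 K562 kit libraries the most alike were ARID3A (0.991), PSMA1 (0.988), PSME3 (0.985), HADHB (0.983) and HIST2H4A (0.982). There the points differ mainly by the 3 shallow Ribo-Zero Plus libraries. The 2 lists had no gene in common.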

How the data were processed

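Footprints were prepared by RNase I digestion and gel selection, per the labels' protocols. CASAVA 1.8, STAR and the builds GRCh38 and hg38 are named in the submitters' processing notes, without roles. The authors deposited raw counts per coding sequence, and RPM values that equal the count over the library total. Only the counts were tested, and no per-sample column was left unused. How reads matching several genes, or PCR duplicates, were handled is not given in the sources used here.

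The test was that of edgeR 4.0.16 under R 4.3.3 (TMM, quasi-likelihood, filterByExpr with a minimum count of 10, Benjamini-Hochberg over all genes tested, threshold 0.05), and DESeq2 1.42.0 was an alternative. The fit of K562 against the HEK lines used the 5 undepleted libraries, kits were fitted on 8 libraries of the kit table, Ribo-Zero Plus on 6, and NEBNext and size on 4. Exact 95% intervals came from scipy 1.17.1. Annotation, windows and sequences came from GENCODE 29 (GRCh38), which may not be the authors' release. On simulated data with known changes, 24% of 2-fold and 69% of 4-fold changes were recovered for K562 against HEK293T (9644 genes), 71% and 96% for FastSelect (9761 genes), 40% and 84% for NEBNext (3715 genes) and 2% and 12% for Ribo-Zero Plus (7322 genes). Replicate pairs had a chi-square per degree of freedom of 1.03 to 1.20. In 7 of 8 pairs the libraries differed beyond sampling noise (p 0.047 to 8.74e-16). For RiboCop no such difference was detected (p 0.103), and no test here rests on that pair alone.

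All 9 members are reported. From each gene list at most 3 called genes in each direction, by size, are named, as are the 5 genes most like the globins in each of 2 sets of libraries. Some genes that this rule names are not reported here. Members and lists were chosen with earlier results of these data known. Size-table groups follow the titles.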

Additional observations from a re-analysis of the deposited data

How the results depend on the processing

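Of all values for single globins under the alternatives, 699 kept their direction and side of the threshold, 51 were called where the main test made no call, 17 lost a call, and 46 changed sign. None of those 46 had a call in the main test, and 41 of them lay within 0.2 of 0 there. Of the 51, 47 were Ribo-Zero Plus values. Fits that left out 1 Ribo-Zero Plus library had no spread among the remaining ones to measure. The Ribo-Zero Plus values changed sign with the library without additions alone against undepleted, an alternative chosen after seeing the data, for HBQ1 (0.83, edgeR adjusted p 0.0285, against -0.05), HBG1 (0.028), HBZ (0.015) and HBA1 (0.0023), and HBQ1 also with DESeq2 size factors (0.045), total-count scaling (0.013) and DESeq2 (0.046). When 1 library was left out, Ribo-Zero Plus spanned -1.54 to 1.88 for HBB and -3.12 to 0.55 for HBQ1, and fragment size -0.36 to 0.11 for HBG2 and -0.24 to 0.59 for HBE1. Depth limits HBQ1, HBD and HBB throughout, and the Ribo-Zero Plus and NEBNext comparisons rest on single libraries.

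The counts of all genes called moved as follows, and the cause was not tested. K562 against HEK293T called 3410 genes, 1413 with the K562 size-selection libraries, 5141 with all libraries, and 2117 (without the second HEK293T library) to 2853 when 1 library was left out. K562 against HEK293FT called 5029, 3000 with DESeq2 and 1696 with the size-selection libraries. FastSelect called 2 genes, 1 with DESeq2, 0 with all 12 libraries and 1 (without the second FastSelect library) to 3 with 1 library left out. RiboPools called 8, 2 with DESeq2, 0 with all 12 and 2 (without the second riboPools library; 4 without the first undepleted one) to 9 with 1 left out. Cold elution called 22, 0 with all 12 and 13 (without the second undepleted library) to 22 with 1 left out. Cold against standard elution called 3, 6 without the filter, 0 with all 12 and 2 to 6 (without the second riboPools library) with 1 left out. Ribo-Zero Plus called 0 genes, 6 without the filter, 129 with DESeq2, 1431 with all 12, 1676 with the library without additions alone, and 4 or 5 without either undepleted library to 3537 without the one with both additions. NEBNext called 101, 60 with total-count scaling, 16 with DESeq2 and 0 (without NEBNext 20 to 34 nt) to 279 (without NEBNext 20 to 60 nt) with 1 left out. Fragment size called 6, 1 with total-count scaling, 3 without the filter, 0 with DESeq2 and 0 to 2 with any 1 of the 4 left out. Total-count scaling moved the median log2 fold change of all genes to -0.24 against HEK293T and -0.13 against HEK293FT.

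In the undepleted kit libraries, averaging near-identical rows, chosen after seeing the data, changed the gamma share from 79.7% to 66.3%, the HBZ share from 25.5% to 40.5%, the cluster ratio from 0.323 to 0.339 and the summed globins from 13168 to 8013 CPM. Per codon the cluster ratio was 0.335.

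Same-numbered kit libraries did not deviate together, with correlations of -0.05 to 0.02 over 4747 genes, so the numbers were not taken as pairs. With the replicate number as a block, FastSelect called 2 genes, riboPools 9, cold elution 27 and cold against standard elution 3, and 0 of 9 globins in each.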
